A study of Fukomys damarensis and Heterocephalus glaber and Cavia porcellus with 28 samples.

Results

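The pyruvate dehydrogenase kinases Pdk1, Pdk2, Pdk3 and Pdk4, the E1 subunits Pdha1 and Pdhb, the mitochondrial pyruvate carrier subunits Mpc1 and Mpc2, and the monocarboxylate transporters Slc16a1 and Slc16a3 were followed across heart and liver of 4 rodent species. These 10 genes were chosen by symbol, with earlier results of these data known, and are 10 of 13928 genes in each tissue's table. All 10 were present in both tables and passed the filter on low values. The animals were naked mole-rats and Damaraland mole-rats, both subterranean African rodents, with guinea pigs and mice as outgroups, and no treatment is named. There were hearts of 3 mice aged 2 months, 3 guinea pigs aged 2.3 months, 3 naked mole-rats aged 13 to 17 months and 5 Damaraland mole-rats aged 36 to 48 months. The livers came from 2 mice, 3 guinea pigs, 4 naked mole-rats and 5 Damaraland mole-rats in the same age ranges. The animals were male except for the Damaraland liver replicate 4, and 1 Damaraland animal is labelled 48 months in heart and 36 months in liver. Each library came from a different animal within a tissue, and 10 of 18 animals gave both tissues. Species and age cannot be told apart, and diet, fasting and time of sampling are not given in the sources used here.

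Pyruvate made by glycolysis enters mitochondria through the pyruvate carrier, a complex of MPC1 and MPC2, and is turned into acetyl-CoA by the pyruvate dehydrogenase complex. The kinases PDK1 to PDK4 phosphorylate the E1 alpha subunit, encoded by Pdha1, and switch the complex off, which spares pyruvate and favours fatty acid use. Pdk4 is a classical fasting-induced gene under PPAR and FOXO control, and Pdk1 is a classical target of hypoxia-inducible factor. Lactate and pyruvate cross the plasma membrane through monocarboxylate transporters, of which MCT1 (Slc16a1) is widespread in oxidative tissues and MCT4 (Slc16a3) is typical of glycolytic cells.

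Values are the deposited variance-stabilised expression values, a log2-like scale on which a gene without reads stands at 5.3645 in the heart table and 4.2893 in the liver table. Differences between species are differences of species means on this scale, first species minus second. The scale understates changes of low genes: 2 times as many scaled reads raised the value by 0.66 from 100 reads and by 0.94 from 1000 reads in heart. Scaled reads are the recovered reads of a library divided by its size factor, without correction for transcript length, so neither different genes nor the tissues are compared by level. The deposited values carry no correction for length differences of a gene's transcript between species either, and the part of such differences in each species difference below was not tested. A gene was called at a limma adjusted p under 0.05 over all genes of the tissue and a difference of at least 1. Library totals ran from 4089633 to 26985779 reads, the lowest in naked mole-rat heart replicate 3. All 8 cardiomyocyte markers were found in the heart table, with summed scaled reads of 2258616 to 2692098 for mouse, 1772933 to 2448904 for Damaraland, 1022985 to 1213983 for guinea pig and 799218 to 1252241 for naked mole-rat hearts, none at 0, and at most 4577 in any liver. Of 8 hepatocyte markers 7 were in the table, with 1061664 to 3401415 in liver. The same 7 summed to 12535 to 34521 in naked mole-rat heart, and among other species to at most 5858 in Damaraland, 2275 in the guinea pig and 1278 in mouse hearts, with no gene at 0 in every library of a species. Of 5 skeletal muscle markers 4 were in the table, and they summed to 123125 to 215215 in Damaraland heart against 23506 to 81206 in the hearts of the other species, with Tnnt3 at 0 in the guinea pig. The part of these markers in the differences below was not tested. In bulk tissue, fewer cells of a type and less RNA per cell cannot be told apart.

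Over the 6 species pairs, 38 of 60 member differences in heart and 25 of 60 in liver were called. Species differences are common in these tables, and the shares below stand beside each count. In heart, naked against Damaraland mole-rats gave 4 called members, 1 higher and 3 lower in the naked mole-rat, where 29.4% of all genes tested were called. Naked mole-rats against guinea pigs gave 6 (33% of all genes), 2 higher and 4 lower. Naked mole-rats against mice gave 8 (38.2%), 1 higher and 7 lower. Damaraland mole-rats against guinea pigs gave 6 (29.7%), 4 higher and 2 lower, and against mice 6 (34.9%), all lower. Guinea pigs against mice gave 8 (32.1%), 1 higher and 7 lower. The median member difference was -1.93, -1.42 and -1.46 for the naked mole-rat, Damaraland mole-rat and guinea pig minus mouse, beside medians of -0.002, 0.014 and 0.007 over all heart genes. The mouse heart thus had the higher value for most of the 10 genes in each of its comparisons, which share the same 3 mouse libraries. The summed cardiomyocyte markers were also higher in the mouse, without overlap with the naked mole-rat and guinea pig and with overlap with the Damaraland mole-rat, and their part in these differences was not tested.

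In liver fewer members were called, and the counts lay closer to the shares over all genes. Naked against Damaraland mole-rats gave 4 called members (34.2% of all genes), 2 in each direction. Naked mole-rats gave 5 against guinea pigs (37.8%) and 5 against mice (41.2%). Damaraland mole-rats gave 3 against guinea pigs (36.2%) and 2 against mice (39.2%). Guinea pigs against mice gave 6 (37.2%), 2 higher and 4 lower in the guinea pig. Without Damaraland replicate 5 the Damaraland and guinea pig count was 5, and without naked mole-rat replicate 2 the naked mole-rat and guinea pig count was 3. The mean of the mole-rats minus the mean of the outgroups called 3 members in heart, Pdk2, Pdk4 and Pdha1, all lower (23.4% of all genes), and 1 in liver, Pdk4, which was higher (28.1%). The liver count was 2 without mouse replicate 1. Pdk2 in heart was called with the same sign in all 4 mole-rat and outgroup pairs, as were 4.68% of heart genes. Pdk4 and Pdha1 in heart were not. Uncalled there were naked mole-rat minus guinea pig for Pdk4 (-0.07) and Damaraland mole-rat minus guinea pig for Pdha1 (-0.28). No member met that rule in liver, where 6.29% of genes did, and Pdk4 in Damaraland mole-rat minus guinea pig liver was uncalled at 0.88.

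**Figure D1:**
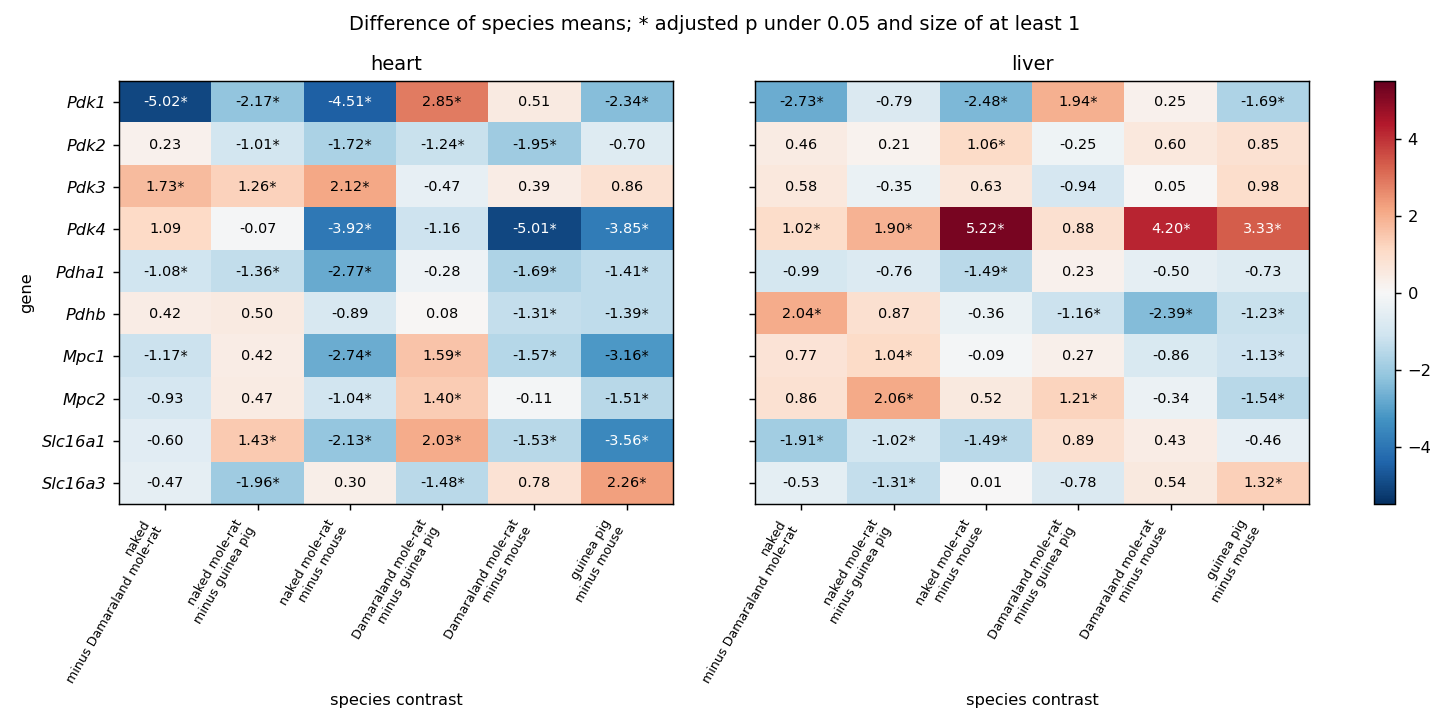
Differences of the species means of the 10 genes on the deposited log2-like scale, one row per gene and one column per species pair, in heart and in liver, with the value in each cell, blue for negative and red for positive, and an asterisk on called differences. The columns with mouse as the second species are mostly negative in heart, and Pdk4 changes sign between the tissues in those columns.

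Some members were called against each of the other 3 species with a single sign. In heart these were Pdk1, Pdk3 and Pdha1 for the naked mole-rat (9.02% of all genes met this rule), none for the Damaraland mole-rat (6.76%), Slc16a1 and Slc16a3 for the guinea pig (6.61%), and Pdk4, Pdha1, Mpc1 and Slc16a1 for the mouse (10.4%). In liver these were Pdk4 and Slc16a1 for the naked mole-rat (10.3%), Pdhb for the Damaraland mole-rat (8.81%), Mpc2 for the guinea pig (9.38%) and Pdk4 for the mouse (12.2%).

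Pdk4 (ENSMUSG00000019577), the fasting-induced kinase, was highest in mouse heart and lowest in mouse liver. Its heart values were 14.31, 14.21 and 14.25 in the mouse, 10.54, 10.35 and 10.11 in the naked mole-rat, 8.80, 8.83, 8.61, 10.02 and 9.97 in the Damaraland mole-rat and 9.32, 9.65 and 12.23 in the guinea pig, in replicate order. Every mouse heart lay above every heart of the other species, and guinea pig replicate 3 stood between the rest of its group and the mouse. In mean scaled reads these were 21553 in the mouse, 1347 in the naked mole-rat, 649 in the Damaraland mole-rat and 2216 in the guinea pig. The difference from mouse was -3.92 (SE 0.55, limma adjusted p = 9.78e-06) in the naked mole-rat, -5.01 (SE 0.49, limma adjusted p = 1.53e-07) in the Damaraland mole-rat and -3.85 (SE 0.55, limma adjusted p = 1.49e-05) in the guinea pig. No pair among the other 3 species was called. All naked mole-rat hearts lay above all Damaraland hearts, with a difference of 1.09 (limma adjusted p = 0.0646) and a 95% interval of 0.05 to 2.13. Naked mole-rat minus guinea pig was -0.07, with an interval of -1.23 to 1.09, and it was 0.84 without guinea pig replicate 3.

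In liver the Pdk4 values were 8.16 and 6.48 in the mouse, 10.90, 10.32 and 10.71 in the guinea pig, 11.75, 11.18, 10.69, 12.43 and 11.56 in the Damaraland mole-rat and 12.70, 13.57, 11.99 and 11.90 in the naked mole-rat. Both mouse livers lay below every other liver, and the 4 naked mole-rat livers lay above the guinea pig livers but overlapped the Damaraland livers. The difference from mouse was 5.22 (SE 0.49, limma adjusted p = 7.81e-08) in the naked mole-rat, 4.20 (SE 0.48, limma adjusted p = 7.38e-07) in the Damaraland mole-rat and 3.33 (SE 0.52, limma adjusted p = 3.51e-05) in the guinea pig. As scaled reads the naked mole-rat mean was 7360 and the mouse mean 168. The mouse estimate rests on 2 animals, and the naked mole-rat difference was 4.38 to 6.06 when single libraries were left out. Naked minus Damaraland mole-rat was 1.02 (SE 0.38, limma adjusted p = 0.0264) and was 0.68 without naked mole-rat replicate 2. It also lost its call without naked replicate 1 (0.96) and without Damaraland replicates 2 (0.93) or 3 (0.81). Damaraland mole-rat minus guinea pig was 0.88 (limma adjusted p = 0.0737). The 1 erythroid marker of 5 in the table had 1727 to 2164 scaled reads in mouse liver against 39.7 to 214 in the other livers, and its part in the mouse difference was not tested.

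Pdk1 (ENSMUSG00000006494), the hypoxia-responsive kinase, was low in the naked mole-rat in both tissues. In heart its values were 7.88, 7.38 and 6.91 in the naked mole-rat against 13.04, 12.30, 12.76, 12.04 and 11.90 in the Damaraland mole-rat, 11.72, 11.76 and 12.20 in the mouse and 9.97, 9.31 and 9.40 in the guinea pig. All naked mole-rat hearts lay below all others, the guinea pig hearts came next, and the Damaraland and mouse hearts overlapped at the top. The naked mole-rat differed by -5.02 (SE 0.27, limma adjusted p = 1.15e-10) from the Damaraland mole-rat, by -4.51 (SE 0.30, limma adjusted p = 1.51e-09) from the mouse and by -2.17 (SE 0.30, limma adjusted p = 9.82e-06) from the guinea pig. Its mean of 113 scaled reads compared with 6203 in the Damaraland mole-rat. Damaraland mole-rat minus mouse was 0.51 (limma adjusted p = 0.101), with an interval of -0.05 to 1.08. The mean of the mole-rats minus that of the outgroups in heart was -0.83 (limma adjusted p = 0.00163), with an interval of -1.25 to -0.40, under the size threshold.

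The order of Pdk1 in liver was the same. The values were 7.95, 7.83, 7.43 and 8.47 in the naked mole-rat, 8.93, 8.47 and 8.74 in the guinea pig, 10.51 and 10.30 in the mouse and 10.31, 11.18, 10.36, 10.79 and 10.62 in the Damaraland mole-rat. The naked mole-rat and guinea pig livers lay below all mouse and Damaraland livers, and naked replicate 4 reached the lowest guinea pig value. Naked minus Damaraland mole-rat was -2.73 (SE 0.21, limma adjusted p = 3.36e-09), and naked mole-rat minus mouse was -2.48 (SE 0.27, limma adjusted p = 3.46e-07). Naked mole-rat minus guinea pig was -0.79 (limma adjusted p = 0.00668), under the size threshold. The Damaraland and mouse livers differed by 0.25 (limma adjusted p = 0.41), with an interval of -0.29 to 0.79. The mole-rats had the lowest and the highest species mean for this kinase. The mean of the mole-rats minus that of the outgroups was -0.27 (limma adjusted p = 0.175) in liver, with an interval of -0.64 to 0.10.

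Pdk2 (ENSMUSG00000038967), a broadly expressed kinase, was lower in mole-rat than in outgroup hearts. The heart values were 11.65, 11.41 and 10.25 in the naked mole-rat, 11.05, 11.18, 10.67, 10.88 and 10.58 in the Damaraland mole-rat, 12.21, 11.80 and 12.34 in the guinea pig and 12.72, 12.73 and 13.02 in the mouse. All 8 mole-rat hearts lay below all 6 outgroup hearts. The differences were -1.72 (SE 0.29, limma adjusted p = 5.82e-05) and -1.95 (SE 0.26, limma adjusted p = 4.45e-06) from mouse for naked and Damaraland mole-rats, and -1.01 (SE 0.29, limma adjusted p = 0.00573) and -1.24 (SE 0.26, limma adjusted p = 0.00049) from guinea pig. The naked mole-rat and guinea pig difference sat at the size threshold. It was -0.59 without naked mole-rat replicate 3, the shallowest heart library, whose value of 10.25 was the lowest of all hearts, -0.97 without guinea pig replicate 1 and -0.90 without guinea pig replicate 3. Each of these ended the call, and with it the call in all 4 mole-rat and outgroup pairs. In liver the mouse was lowest: the values were 10.59 and 10.33 in the mouse against 11.23, 11.81, 11.49 and 11.55 in the naked mole-rat, 10.94, 11.32, 10.88, 11.09 and 11.08 in the Damaraland mole-rat and 11.18, 11.28 and 11.48 in the guinea pig. Both mouse livers were below all others, and the call was made for naked mole-rat minus mouse alone, at 1.06 (SE 0.19, limma adjusted p = 9.7e-05). It was 0.93 without mouse replicate 2 and 0.96 without naked mole-rat replicate 2, both under the size threshold. The Damaraland mole-rat and guinea pig exceeded mouse by 0.60 (limma adjusted p = 0.00789) and 0.85 (limma adjusted p = 0.00134), under the size threshold.

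Pdk3 (ENSMUSG00000035232), another kinase isoform, was higher in naked mole-rat heart than in the other hearts. The values there were 8.91, 8.55 and 9.21, against 7.79, 7.47 and 7.63 in the guinea pig, 7.52, 6.90, 7.16, 7.34 and 6.88 in the Damaraland mole-rat and 6.93, 6.73 and 6.66 in the mouse. All naked mole-rat hearts lay above all others. The difference was 1.73 (SE 0.18, limma adjusted p = 3.89e-07) from the Damaraland mole-rat, 1.26 (SE 0.20, limma adjusted p = 4.55e-05) from the guinea pig and 2.12 (SE 0.20, limma adjusted p = 1.13e-07) from the mouse, and in scaled reads the naked mean was 447 against 47.5 in the mouse. In naked mole-rat heart Pdk1 and Pdk3 thus moved in opposite directions from the same genes in the other 3 species. In liver Pdk3 lay between 4.90 and 6.33 in every library, near the value of a gene without reads, and no difference was called there. The species means ran from 7.6 scaled reads in the mouse to 40.9 in the guinea pig.

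**Figure D2:**
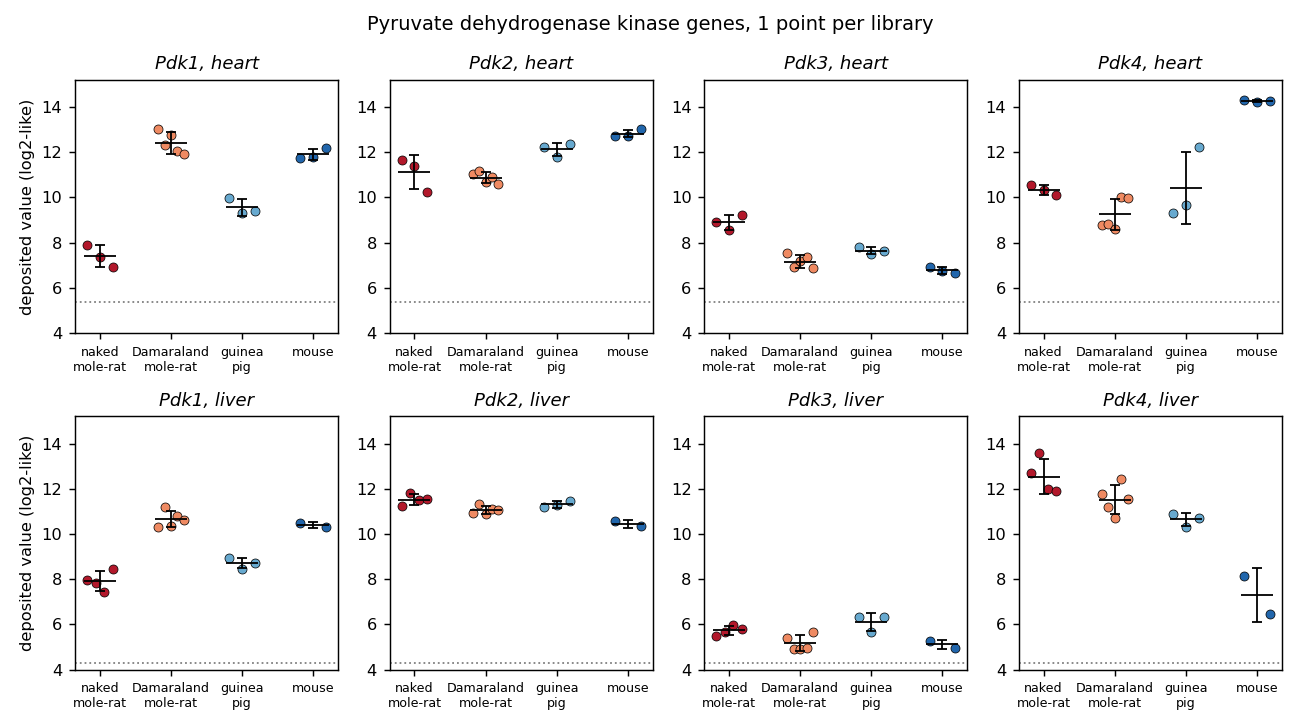
Deposited log2-like values of Pdk1, Pdk2, Pdk3 and Pdk4 in each library of heart and liver by species, with 1 point per animal, the mean with its SD as bars, and a dotted line at the value of a gene without reads. The naked mole-rat points for Pdk1 sit lowest in heart, those for Pdk3 sit highest in heart, and the mouse points for Pdk4 sit highest in heart and lowest in liver.

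Pdha1 (ENSMUSG00000031299), the E1 alpha subunit and the substrate of the kinases, was lowest in naked mole-rat heart and highest in mouse heart. The values were 11.81, 11.66 and 11.42 in the naked mole-rat, 12.50, 12.70, 13.07, 12.35 and 12.91 in the Damaraland mole-rat, 13.06, 12.79 and 13.11 in the guinea pig and 14.32, 14.37 and 14.50 in the mouse. The naked mole-rat hearts lay below and the mouse hearts above all others, while Damaraland and guinea pig hearts overlapped. Naked mole-rats differed by -1.08 (SE 0.18, limma adjusted p = 6.28e-05) from Damaraland mole-rats, by -1.36 (SE 0.20, limma adjusted p = 1.9e-05) from guinea pigs and by -2.77 (SE 0.20, limma adjusted p = 4.06e-09) from mice. The first of these was -0.97 without naked mole-rat replicate 3 and -0.99 without Damaraland replicate 3, under the size threshold. In liver the naked mole-rat was again lowest at 9.69, 9.69, 10.15 and 9.97, against 10.40 to 10.75 in the guinea pig, 10.32 to 11.23 in the Damaraland mole-rat and 11.36 in both mice. Naked mole-rat minus mouse was -1.49 (SE 0.24, limma adjusted p = 3.56e-05), and minus Damaraland mole-rat -0.99 (limma adjusted p = 0.000154), just under the size threshold.

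Pdhb (ENSMUSG00000021748), the E1 beta subunit, followed another order. In heart its values were 12.62, 12.63 and 12.03 in the naked mole-rat, 11.72 to 12.43 in the Damaraland mole-rat, 11.80 to 12.13 in the guinea pig and 13.23 to 13.37 in the mouse. Mouse hearts were again the highest, but naked mole-rat hearts did not fall below the other species. The Damaraland mole-rat and guinea pig differed from mouse by -1.31 (limma adjusted p = 1.5e-05) and -1.39 (limma adjusted p = 3.59e-05), and the naked mole-rat by -0.89 (limma adjusted p = 0.00175). In liver Pdhb was low in the Damaraland mole-rat, at 9.20, 8.85, 9.03, 9.14 and 8.54, below all of the naked mole-rat (10.61, 10.84, 11.46 and 11.04), guinea pig (10.31, 9.78 and 10.25) and mouse (10.85 and 11.83) values. Naked minus Damaraland mole-rat was 2.04 (SE 0.21, limma adjusted p = 2.28e-07), Damaraland mole-rat minus guinea pig -1.16 (SE 0.23, limma adjusted p = 0.000312) and minus mouse -2.39 (SE 0.27, limma adjusted p = 6.02e-07). Guinea pig minus mouse was -1.23 (limma adjusted p = 0.00161), and -0.74 without mouse replicate 2, which ended the call. Adipocyte markers, all 4 of which were in the table, summed to 658 to 3989 scaled reads in Damaraland liver and to 11 to 104 in the livers of the other species, with Lep at 0 in the mouse. Their part in the Pdhb difference was not tested.

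Since the E1 heterotetramer needs both subunits, the log2 ratio of Pdha1 to Pdhb scaled reads within each library was set beside the values, a measure chosen after the values had been seen. In liver it was -1.15 ± 0.16 (SD, n = 4) in the naked mole-rat, 2.00 ± 0.16 (SD, n = 5) in the Damaraland mole-rat, 0.53 ± 0.11 (SD, n = 3) in the guinea pig and 0.02 ± 0.71 (SD, n = 2) in the mouse. In heart it was -0.81 ± 0.18 (SD, n = 3), 0.72 ± 0.28 (SD, n = 5), 1.08 ± 0.18 (SD, n = 3) and 1.09 ± 0.05 (SD, n = 3) in the same order. The naked mole-rat libraries were the lowest in both tissues and did not overlap those of any other species. Naked minus Damaraland mole-rat was -3.14 in liver, with an exact two-sided permutation p of 0.0159, and -1.53 in heart, with an exact p of 0.0357, each the smallest that its group sizes allow. Adjusted over the 24 ratio tests both were 0.171. With these group sizes no outcome could bring any of the 24 adjusted values under 0.05, so these tests cannot decide the differences. The ratio carries the transcript lengths of each species, which were not corrected, so its level is not a ratio of subunits.

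**Figure D3:**
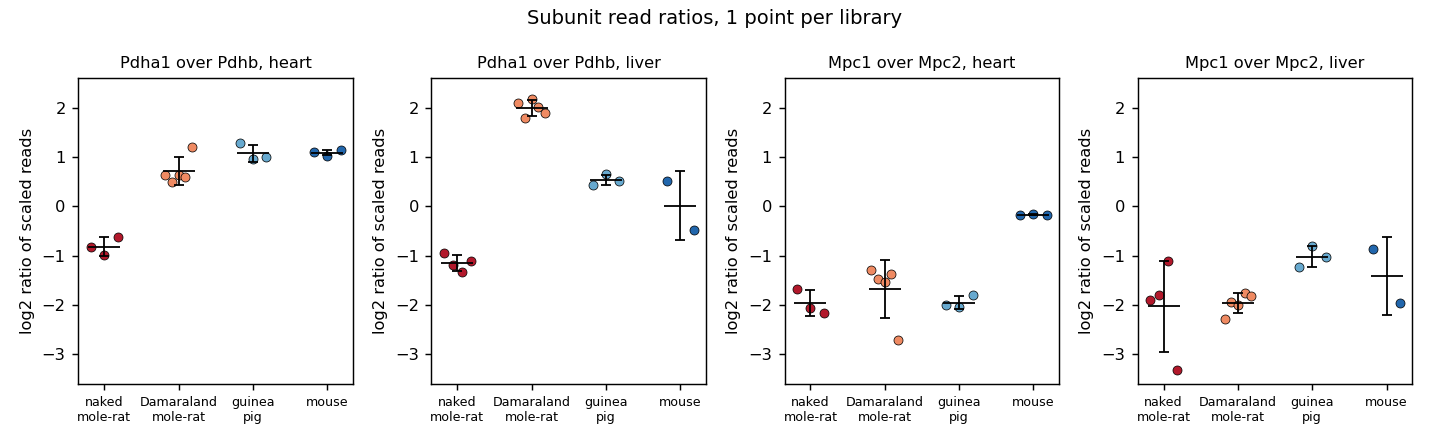
Log2 ratios of Pdha1 to Pdhb and of Mpc1 to Mpc2 scaled reads in each library, by species and tissue, with 1 point per animal and the mean with its SD as bars. Naked mole-rat libraries have the lowest Pdha1 to Pdhb ratios in both tissues, and mouse hearts have the highest Mpc1 to Mpc2 ratios.

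Mpc1 (ENSMUSG00000023861) and Mpc2 (ENSMUSG00000026568), the subunits of the pyruvate carrier, were lower in guinea pig than in the mouse in both tissues. In heart Mpc1 was 12.56, 12.64 and 12.68 in the mouse, 11.57, 11.36, 11.55, 10.74 and 10.05 in the Damaraland mole-rat, 10.22, 9.84 and 9.59 in the naked mole-rat and 9.69, 8.96 and 9.74 in the guinea pig. The mouse hearts lay above all others, and the naked mole-rat and guinea pig hearts overlapped. The difference from mouse was -2.74 (SE 0.33, limma adjusted p = 1.91e-06) in the naked mole-rat, -1.57 (SE 0.30, limma adjusted p = 0.000189) in the Damaraland mole-rat and -3.16 (SE 0.33, limma adjusted p = 4.84e-07) in the guinea pig. Mpc2 in heart was 12.83, 12.81, 13.07, 12.07 and 12.67 in the Damaraland mole-rat, 12.73, 12.80 and 12.85 in the mouse, 11.82, 11.81 and 11.63 in the naked mole-rat and 11.59, 10.82 and 11.45 in the guinea pig. Unlike Mpc1, Mpc2 had overlapping Damaraland and mouse hearts, which differed by -0.11 (limma adjusted p = 0.67) with an interval of -0.55 to 0.34. Damaraland hearts exceeded guinea pig hearts by 1.40 (SE 0.21, limma adjusted p = 2.29e-05), and naked mole-rat hearts differed from mouse by -1.04 (limma adjusted p = 0.00103), or by -0.98 without naked mole-rat replicate 3, under the size threshold.

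The log2 ratio of Mpc1 to Mpc2 was -0.17 ± 0.01 (SD, n = 3) in mouse heart. It was -1.97 ± 0.27 (SD, n = 3) in the naked mole-rat, -1.68 ± 0.59 (SD, n = 5) in the Damaraland mole-rat and -1.95 ± 0.13 (SD, n = 3) in guinea pig heart. The mouse hearts did not overlap the others. The exact two-sided permutation p was 0.0357 against the Damaraland mole-rat and 0.1 against each other species, the smallest possible. The adjusted values were 0.171 and 0.211, and here too none under 0.05 was possible. In liver Mpc1 was 9.61 to 10.71 in the naked mole-rat, 9.30 to 9.86 in the Damaraland mole-rat, 9.02 to 9.35 in the guinea pig and 10.92 and 9.80 in the mouse. Naked mole-rat minus guinea pig was called at 1.04 (limma adjusted p = 0.00245), and lost its call without guinea pig replicate 2 (0.94) or without naked mole-rat replicates 2 or 3 (0.93 and 0.90). Guinea pig minus mouse was called at -1.13 (limma adjusted p = 0.00587), and was -0.57 without mouse replicate 1. Mpc2 in liver was 10.50, 9.79 and 10.33 in the guinea pig against 12.00, 12.40, 11.80 and 12.88 in the naked mole-rat, 11.62, 11.29, 11.50, 11.58 and 11.05 in the Damaraland mole-rat and 11.77 and 11.72 in the mouse. All guinea pig livers lay below all others, by 2.07 (SE 0.24, limma adjusted p = 6.9e-07) in naked mole-rat minus guinea pig, 1.21 (SE 0.23, limma adjusted p = 0.000162) in Damaraland mole-rat minus guinea pig and -1.54 (SE 0.28, limma adjusted p = 0.000167) in guinea pig minus mouse. The Damaraland difference was 0.998 without guinea pig replicate 2.

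Slc16a1 (ENSMUSG00000032902), which encodes MCT1, was highest in mouse heart and lowest in guinea pig heart. The values were 12.51, 12.61 and 12.53 in the mouse, 11.14, 11.04, 11.24, 10.63 and 11.04 in the Damaraland mole-rat, 10.27, 10.35 and 10.63 in the naked mole-rat and 9.02, 9.17 and 8.79 in the guinea pig. The mouse and guinea pig hearts did not overlap any other species, and the mole-rats lay between them and touched at 10.63. Guinea pig minus mouse was -3.56 (SE 0.18, limma adjusted p = 5.49e-11), which is 478 against 6552 mean scaled reads. The naked and Damaraland mole-rats differed from mouse by -2.14 (limma adjusted p = 2.3e-08) and -1.53 (limma adjusted p = 2.87e-07) and from guinea pig by 1.43 (limma adjusted p = 3.26e-06) and 2.03 (limma adjusted p = 1.31e-08). In liver the naked mole-rat was lowest, at 8.27, 8.52, 9.02 and 8.63, against 9.77, 9.56 and 9.57 in the guinea pig, 10.38 and 9.81 in the mouse and 10.86, 10.33, 10.99, 10.42 and 10.01 in the Damaraland mole-rat. All naked mole-rat livers lay below all others. The differences were -1.91 (SE 0.20, limma adjusted p = 2.32e-07) from the Damaraland mole-rat, -1.49 (SE 0.26, limma adjusted p = 8.8e-05) from the mouse and -1.03 (SE 0.23, limma adjusted p = 0.000833) from the guinea pig. The last ranged from -1.16 to -0.91 when single libraries were left out and lost its call without guinea pig replicate 1 and without naked mole-rat replicates 1 or 2. Of 5 cholangiocyte markers 4 were in the table, and they summed to 2374 to 3308 scaled reads in naked mole-rat liver against 132 to 2273 in the other livers, with none at 0 in every library of a species. Their part in the Slc16a1 difference was not tested.

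Slc16a3 (ENSMUSG00000025161), which encodes MCT4, was low in reads in both tissues and highest in the guinea pig. In heart it was 9.16, 8.72 and 8.67 in the guinea pig, 7.38, 7.07, 7.53, 7.34 and 7.50 in the Damaraland mole-rat, 6.80, 7.02 and 6.86 in the naked mole-rat and 6.78, 6.66 and 6.31 in the mouse. The guinea pig hearts lay above all others, and in guinea pig heart the transporters thus stood at opposite ends of the species order, Slc16a1 lowest and Slc16a3 highest. The differences were -1.96 (SE 0.18, limma adjusted p = 1.13e-07) for naked mole-rat minus guinea pig, -1.48 (SE 0.16, limma adjusted p = 6.62e-07) for Damaraland mole-rat minus guinea pig and 2.26 (SE 0.18, limma adjusted p = 2.11e-08) for guinea pig minus mouse, on means of 56.2, 104, 429 and 35.9 scaled reads in the naked mole-rat, Damaraland mole-rat, guinea pig and mouse. Of 6 fibroblast markers 5 were in the table, and they summed to 48678 to 130235 scaled reads in guinea pig heart, against 8647 to 11524 for mouse, 11723 to 26050 for naked mole-rat and 11266 to 47454 for Damaraland hearts. Of 7 macrophage markers 4 were in the table, with 1475 to 1762 in guinea pig heart against 359 to 3110 in the other hearts. No marker of either list was at 0 in every library of a species, and their part in the Slc16a3 difference was not tested. In liver Slc16a3 was 6.53, 6.45 and 6.30 in the guinea pig and 4.95 to 5.89 in the other species, with -1.31 (limma adjusted p = 3.73e-06) for naked mole-rat minus guinea pig and 1.32 (limma adjusted p = 3.5e-05) for guinea pig minus mouse.

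**Figure D4:**
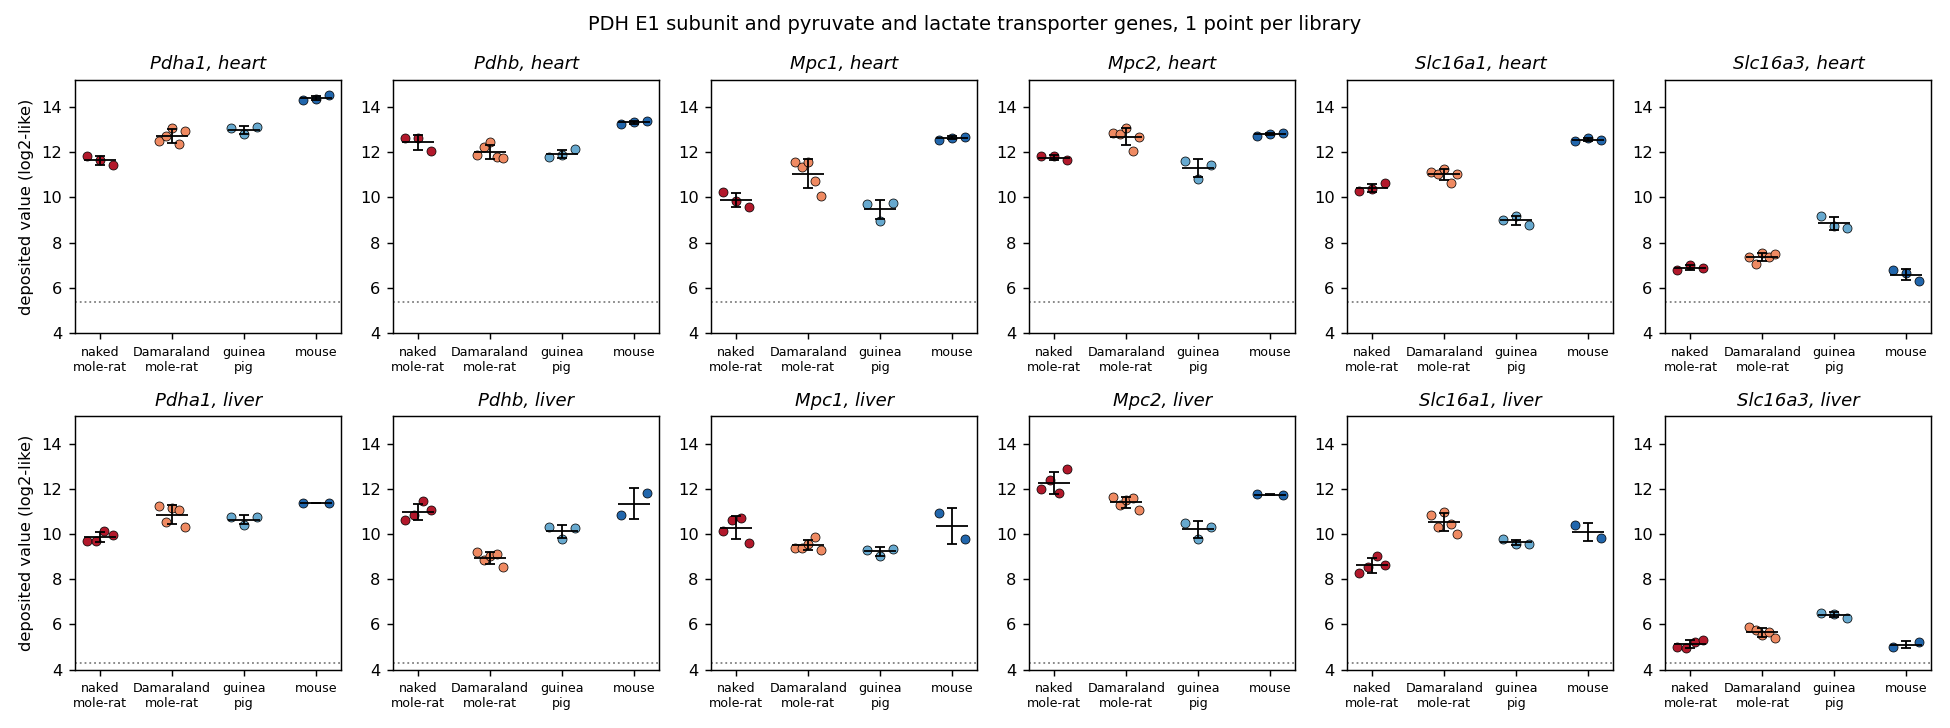
Deposited log2-like values of Pdha1, Pdhb, Mpc1, Mpc2, Slc16a1 and Slc16a3 in each library of heart and liver by species, with 1 point per animal, the mean with its SD as bars, and a dotted line at the value of a gene without reads. Mouse hearts sit highest for Pdha1, Mpc1 and Slc16a1, guinea pig hearts sit lowest for Slc16a1 and highest for Slc16a3, and Damaraland livers sit lowest for Pdhb.

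The other genes of the pathway were taken from 5 lists. Of 7 tested genes of the pyruvate dehydrogenase complex, its phosphatases and lipoate attachment, the mean of the mole-rats minus the mean of the outgroups called 0 higher and 2 lower in heart, where 23.4% of all genes were called, and 0 higher and 2 lower in liver (28.1% of all genes). In both tissues these were Dlat, the E2 core subunit (-1.43 in heart and -1.24 in liver), and Lias, the lipoate synthase (-1.27 and -1.62). By species mean, Dlat was highest in the mouse and Lias in the guinea pig in both tissues. Of the list, only Lias in heart was called in all 4 mole-rat and outgroup pairs (4.68% of heart genes). Neither gene was so called in liver (6.29% of liver genes). The list's median difference was -0.57 in heart and -0.26 in liver, beside -0.01 and 0.02 over all genes tested. Lias in heart was 8.08 to 8.63 in the naked and 7.84 to 8.21 in the Damaraland mole-rat against 9.47 to 9.62 in the guinea pig and 9.36 to 9.43 in the mouse, without overlap between mole-rats and outgroups. Pdp2, a phosphatase that reverses the kinases' action, was called higher in mouse heart than in each other species, at 10.32 ± 0.22 (SD, n = 3) against means of 7.78 in the naked mole-rat, 8.82 in the Damaraland mole-rat and 8.23 in the guinea pig. Mouse heart was thus highest for both Pdk4 and this phosphatase. Pdp1 and Lipt2 were not analysed here, since neither symbol was matched in the heart or the liver table.

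Of 11 genes that convert pyruvate and lactate, 1 was higher and 0 lower in mole-rat heart (23.4% of all genes called), and 4 were higher and 2 lower in mole-rat liver (28.1%) by the same contrast. The heart gene, Pklr, the liver and red cell pyruvate kinase, had a mean under the filter value in the hearts without the naked mole-rat, and none of the other 10 was called in heart. Ldha, the lactate dehydrogenase A subunit, separated the mole-rats in heart, at 14.79, 14.95, 15.10, 14.50 and 14.85 in Damaraland and 11.28, 11.33 and 11.04 in the naked mole-rat, with guinea pig (11.50 to 12.74) and mouse (13.18 to 13.31) between them. Gpt2, a mitochondrial alanine transaminase, did the same, with means of 12.41 in Damaraland, 8.36 in the naked mole-rat, 11.08 in the guinea pig and 10.30 in the mouse. Each was called for both mole-rat species against each of the other 3. Naked mole-rat heart had the lowest value of Pdk1 and Ldha alike, and Damaraland heart the highest mean of both. Me2, a mitochondrial malic enzyme, was higher in guinea pig heart at 11.84 ± 0.10 (SD, n = 3), and Me1, the cytosolic malic enzyme, was higher in mouse heart at 11.59 ± 0.06 (SD, n = 3), each called against every other species. In liver 6 of the 11 were called in the guinea pig against each other species with a single sign, as were 9.38% of all liver genes. They included Me1, at 5.15 ± 0.06 (SD, n = 3) in the guinea pig against means of 9.65 to 12.25, Gpt, the cytosolic alanine transaminase, at 8.69 ± 0.69 (SD, n = 3) against 11.51 to 12.36, and Ldhd, the D-lactate dehydrogenase, at 9.22 ± 0.07 (SD, n = 3) against 11.12 to 12.24. Ldhb, the lactate dehydrogenase B subunit, was instead highest in guinea pig liver, at 11.11 ± 0.29 (SD, n = 3), and lowest in mouse liver, at 6.43 ± 0.26 (SD, n = 2).

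Of 10 tested genes for other monocarboxylate transporters and their chaperones, 2 were higher and 0 lower in mole-rat heart (23.4% of all genes called), and 4 higher and 1 lower in mole-rat liver (28.1%). Of the 10, Slc16a11, Slc16a12 and Emb had such a mean in heart without their highest species, and among the other 7 there 1 was higher. Slc16a7, which encodes the high-affinity transporter MCT2, was lower in mouse heart than in each other species, at 8.72, 8.34 and 8.36 against means of 13.40 in the naked mole-rat, 13.14 in the Damaraland mole-rat and 13.51 in the guinea pig. Slc16a1 and Slc16a7 thus had opposite orders between mouse and the other hearts. Emb, the chaperone embigin, passed the filter through its Damaraland values of 9.55, 9.94, 10.12, 9.64 and 8.74, and the means of the other hearts, 5.84 to 6.34, lay under the filter value of 6.365. In liver Slc16a7 was called in all 4 mole-rat and outgroup pairs, at 11.22 in the naked and 10.91 in the Damaraland mole-rat against 6.23 in the guinea pig and 9.68 in the mouse. Slc16a10, an aromatic amino acid transporter, was highest in mouse liver (11.13) and lowest in Damaraland liver (7.15). Slc16a13 was highest in naked mole-rat liver (9.06) and lowest in mouse liver (6.30). How completely each species' transcripts covered these genes is not given in the sources used here, and its part in these differences was not tested.

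Of the transcription regulators known for Pdk genes, 0 of 11 were higher and 2 lower in mole-rat heart, Esrrg and Foxo3 (23.4% of all genes called), and 0 of 10 higher and 1 lower in mole-rat liver, Foxo3 (28.1%). Esrrg, the estrogen-related receptor gamma, had heart means of 8.59 in the naked and 8.37 in the Damaraland mole-rat against 10.36 in the guinea pig and 10.28 in the mouse. With voom on the recovered reads 4 of this list were lower in heart (36% of all genes called) and 2 in liver (37.3%). The naked mole-rat was called lower than each other species for Ppard in heart (6.73 ± 0.16, SD, n = 3, against means of 8.75 to 9.84) and in liver (5.77 ± 0.22, SD, n = 4, against 7.20 to 8.31). Rxra, the PPAR partner, was likewise lower in naked mole-rat heart (9.45 against 10.66 to 11.64) and liver (11.19 against 13.00 to 13.27). Foxo1 was higher in mouse than in each other species in heart, at 9.37 against 7.81 to 8.16, and in liver, at 9.79 against 7.70 to 8.31. The mouse thus had the highest Foxo1 mean in both tissues, with the highest Pdk4 mean in heart and the lowest in liver. A link between Foxo1 and Pdk4 was not tested. Ppara was lower in guinea pig liver, at 10.21 ± 0.09 (SD, n = 3).

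Of 8 tested fasting and PPAR target genes, 0 were higher and 2 lower in mole-rat heart, Ucp3 and Plin2 (23.4% of all genes called), and 2 were higher and 1 lower in mole-rat liver (28.1%). Ucp3, a mitochondrial uncoupling protein homologue, was 10.74, 10.59 and 10.76 in mouse heart and had at most 2 reads in every heart of the other species, guinea pigs included. It passed the filter only through the mouse, and without it 1 of 7 was lower in heart, Plin2. How completely each species' transcripts covered Ucp3 is not given in the sources used here, and its part was not tested. Angptl4, a secreted lipase inhibitor induced by fasting, was also higher in mouse heart, at 8.98, 8.30 and 8.68, than the means of 7.43 in the naked mole-rat, 7.03 in the Damaraland mole-rat and 6.82 in the guinea pig. Plin2, a lipid droplet coat protein, was lower in Damaraland heart (8.36 ± 0.62, SD, n = 5) than in each other species. Hadha, a subunit of the trifunctional protein of beta oxidation, was lower in the guinea pig than in each other species in heart (12.27 against 13.79 to 14.60) and liver (10.72 against 12.04 to 12.79). In liver Plin2 was 13.18 and 13.40 in the mouse against means of 8.13 to 9.03, so mouse liver was highest for this target and lowest for Pdk4. Cpt1b, the muscle form of carnitine palmitoyltransferase, was 7.64, 7.91, 9.08 and 8.03 in naked mole-rat liver against means of 4.92 to 5.79, and the Pdk4 mean was highest in the same livers.

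**Figure D5:**
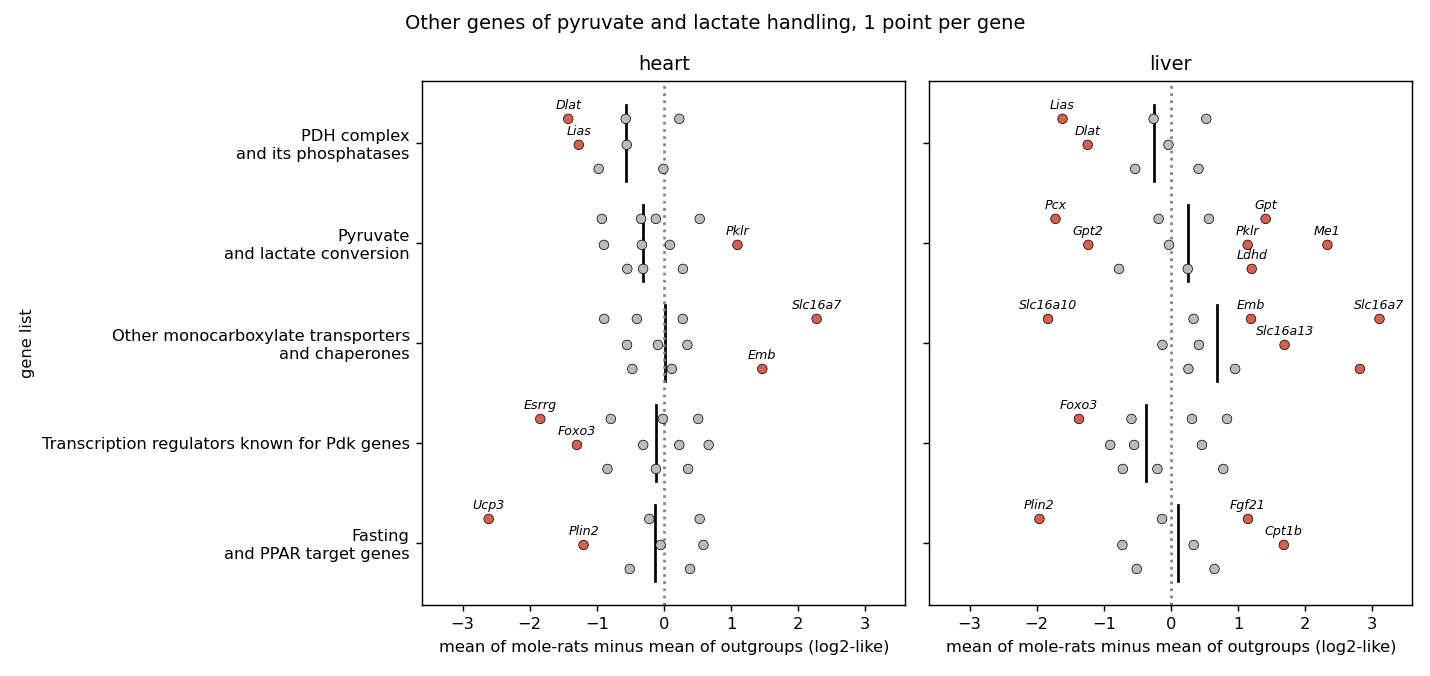
Each point is 1 tested gene of a pathway list, with the mean of the mole-rats minus the mean of the outgroups on the deposited log2-like scale on the horizontal axis, red where called, with most of these named, grey where not, and a black line at the list's median, in heart and liver. Dlat and Lias lie left of 0 in both tissues, and the transporter list has 4 called genes on the right and 1 on the left in liver.

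The guinea pig heart with the high Pdk4 value was looked at by library, a comparison chosen after its value had been seen. Guinea pig heart replicate 3, at 12.23 against 9.32 and 9.65, also had the highest value of its group for Angptl4 (7.79 against 6.06 and 6.62), Cpt1a (10.01 against 8.47 and 8.69) and Plin2 (10.80 against 10.18 and 10.29). Ucp3 had 1 read in each guinea pig heart, near the value of a gene without reads, and cannot tell these hearts apart. The liver of the same animal had Pdk4 at 10.71, between 10.32 and 10.90, but the highest Angptl4 (10.88 against 9.37 and 8.997) and Cpt1a (12.29 against 10.83 and 9.22) of its group. These are single animals, and no test was made.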

How the data were processed

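Per the labels, ribosomal RNA was removed from total RNA of flash-frozen heart and liver, and libraries were sequenced on a NovaSeq. The submitters' processing notes name cutadapt, Salmon 013.1, DESeq2 and GRCm38, with no role or order. The authors deposited variance-stabilised log2-like values, 1 table per tissue, under mouse gene identifiers, of which 13921 of 13928 matched a symbol. A further 26 columns belong to other series and were not used. How genes were matched across species, and how reads shared by related genes were assigned, is not given in the sources used here.

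Inverting the transform gave whole reads for all values (tolerance 0.001), and scaled reads are these divided by the library's size factor. Tests used limma 3.58.1 (R 4.3.3) on the deposited values of each tissue with 1 coefficient per species, a variance trend and Benjamini-Hochberg adjustment over 10667 heart and 10887 liver genes whose mean was at least 1 above the value of 0 reads. The p-values measure the spread between animals. On simulated reads, an adjusted p under 0.05 recovered 99% of 100 genes changed 2-fold in heart and 98% in liver (11049 and 11275 genes tested), and 100% of 100 changed 4-fold in each. The contrast was the mean of the mole-rats minus that of the outgroups. Recovery in the species pairs, which compare fewer animals, was not measured. The changed genes were drawn from genes with over 100 mean scaled reads, and the spread of the reads was assumed. Recovery was therefore not measured for lower genes, such as Pdk3 and Slc16a3 in liver. With the size threshold of 1 added, 29% and 31% of the 2-fold genes were recovered, whose median absolute difference was 0.871 and 0.905, and 98% and 100% of the 4-fold genes, so most 2-fold changes are not called. Subunit ratios, chosen after the values were seen, were compared with exact permutation tests in SciPy 1.17.1. Alternatives were other size thresholds and filters, centred or quantile-normalised libraries, other variance models, weights per library, log2 of scaled reads, voom, the replicate number as a block, and each library left out in turn.

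The 10 genes and the lists were chosen with earlier results of these data known. Named list genes are those called with 1 sign in all 4 mole-rat and outgroup pairs or in 1 species against each of the other 3, at most 4 per list and tissue by size, and genes named in a count of 5 or fewer. Some list genes are counted but not reported here by name.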

Additional observations from a re-analysis of the deposited data

Results flagged for a closer look

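In 9 of 60 combinations of a gene with a species pair, every library of the first species lay on one side of the second species in heart and on the opposite side in liver, which is 15%, beside 9.08% of 60654 combinations over all genes tested in both tissues. The tables were normalised separately, and the difference between tissues was not tested. Pdk4 did so for every species paired with mouse: naked mole-rat minus mouse was -3.92 in heart and 5.22 in liver, Damaraland mole-rat minus mouse -5.01 and 4.20, and guinea pig minus mouse -3.85 and 3.33. Pdk2 did so in the same pairs, at -1.72 and 1.06, -1.95 and 0.60, and -0.70 and 0.85 in the same order. These 3 pairs share their mouse libraries, and 9.96% to 12.7% of all genes did so in each of them. Mpc2 was lower in naked than in Damaraland mole-rat heart (-0.93) and higher in liver (0.86), and naked mole-rat minus mouse was -1.04 in heart and 0.52 in liver. Slc16a1 was higher in naked mole-rat than in guinea pig heart (1.43) and lower in liver (-1.02).

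Outlying libraries were sought only in groups of at least 4, which are the Damaraland hearts and livers and the naked mole-rat livers. No mouse or guinea pig group and no naked mole-rat heart group was tested. Among 39 groups tested, counted per gene, ratio and read total, 2 held a library far from its group. Chance gives about 1 in 20 groups, so about as many. Both were Damaraland heart replicate 5, with a log2 ratio of Mpc1 to Mpc2 of -2.72 (the other 4 libraries lay between -1.54 and -1.28) and of Pdha1 to Pdhb of 1.21 (the others lay between 0.50 and 0.64). Its total of 8551766 reads was the lowest of its group, and its part in these values was not tested.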

How the results depend on the processing

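Of 63 called member differences, 51 kept their call under every setting with the same thresholds, 12 lost it under at least 1, and none changed sign. With no size threshold the called members in heart were 7 for naked minus Damaraland mole-rat and 8 for the mean of the mole-rats minus that of the outgroups, and in liver 10 for naked minus Damaraland mole-rat, 8 for naked mole-rat minus guinea pig, 6 for Damaraland mole-rat minus guinea pig, 5 for Damaraland mole-rat minus mouse and 6 for the means. Over all genes the same setting called 59.6% to 67.3% in heart and 58.8% to 68% in liver, depending on the comparison. Tested against a difference of 1, 32 of 63 calls were kept. The heart counts were then 2 for naked minus Damaraland mole-rat, 2 for naked mole-rat minus guinea pig, 3 for Damaraland mole-rat minus guinea pig and 5 for guinea pig minus mouse, and the liver counts 1 for naked mole-rat minus guinea pig, 2 for naked mole-rat minus mouse, 1 for Damaraland mole-rat minus guinea pig and 1 for guinea pig minus mouse, beside 11.2% to 19.5% of all heart genes and 15.7% to 22.5% of all liver genes. On log2 of scaled reads plus 1, plus 10 and with voom, the heart means gave 5 and liver Damaraland mole-rat minus guinea pig 5, and liver naked minus Damaraland mole-rat gave 7 with plus 1 and with voom, where 33.4% to 36%, 41.5% to 44.6% and 42.9% of all genes were called. Leaving out single libraries moved liver Damaraland mole-rat minus guinea pig from 3 up to 5 (without Damaraland replicate 5), naked mole-rat minus guinea pig between 3 (without naked replicate 2) and 5, and the means between 1 and 2 (without mouse replicate 1). Where 1 mouse liver was left, it was assumed to vary like the other groups.

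Calls were lost for Pdk2 in heart (naked mole-rat minus guinea pig, -0.61 with sample weights), Pdha1 in heart (guinea pig minus mouse, -0.97 with quantile normalisation), Pdhb in liver (guinea pig minus mouse, -0.74 without mouse replicate 2) and others near the size threshold. Uncalled differences that changed sign in heart were, with quantile normalisation, Pdhb in Damaraland mole-rat minus guinea pig (-0.083) and Mpc2 in Damaraland mole-rat minus mouse (0.092), and with sample weights Pdk4 in naked mole-rat minus guinea pig (0.059) and the same Mpc2 difference (0.027). In liver they were, with quantile normalisation, Pdk2 in naked mole-rat minus guinea pig (-0.028), Slc16a3 in naked mole-rat minus mouse (-0.35) and Pdk3 in Damaraland mole-rat minus mouse (-0.43), and with sample weights the last pair again (-0.046 and -0.077). When single libraries were left out, sign changes were seen in heart for Pdhb in Damaraland mole-rat minus guinea pig (-0.031 to 0.18), Mpc2 in Damaraland mole-rat minus mouse (-0.20 to 0.049), Pdk4 in naked mole-rat minus guinea pig (-0.61 to 0.84) and Pdk2 in naked minus Damaraland mole-rat (-0.045 to 0.66), in liver for Pdk3 in Damaraland mole-rat minus mouse (-0.11 to 0.20) and for Slc16a3 (-0.11 to 0.13), Mpc1 (-0.65 to 0.48) and Pdhb (-0.85 to 0.13) in naked mole-rat minus mouse, for the Pdha1 to Pdhb ratio in guinea pig minus mouse heart (-0.11 to 0.050), and for the Mpc1 to Mpc2 ratio in naked mole-rat minus guinea pig heart (-0.17 to 0.082), naked minus Damaraland liver (-0.37 to 0.37), Damaraland mole-rat minus mouse liver (-1.11 to 0.003) and guinea pig minus mouse liver (-0.16 to 0.95). The cause of these shifts was not tested. For same-numbered libraries of different species, the correlation of their deviations was -0.26 to 0.30 over 18 pairs in heart and -0.23 to 0.15 over 16 in liver. It was over 0.1 in 2 and 5 of them. No differently numbered libraries were set beside these pairs, so a link between same-numbered libraries was not tested. With the replicate block the Slc16a1 liver difference between naked mole-rat and guinea pig was -0.99 and lost its call, liver Damaraland mole-rat minus guinea pig had 5 called members (36.7% of all genes), and Mpc2 in heart (0.11) and Pdk3 in liver (-0.12), both Damaraland mole-rat minus mouse, changed sign. With only the compared species fitted, the contrast of means has no value, and among genes above the table median 55 of the 63 calls could be tested.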
